A study of Bos taurus with 2 samples.

Results

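Beta-defensins are small, positively charged antimicrobial peptides that are held together by disulfide bonds and damage the membranes of bacteria. In cattle the family is large and its genes lie in a cluster, and some members were found in the lining of the airways, tongue and gut while others were purified from the granules of neutrophils. In the bovine udder, mammary epithelial cells are known to make some of these peptides, and bacterial products sensed by Toll-like receptors can induce them through NF-κB.

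The members were all array probes for genes whose name in the files, or the current RefSeq symbol of the listed transcript, was TAP, LAP, DEFB, DEFB1, DEFB4A, DEFB5, DEFB10 or EBD. These 8 names matched 14 of 43653 probes, for 7 of 16959 genes. The 4 probes named DEFB1 in the files carry the transcript that RefSeq now calls EBD, so they are described as EBD, and no probe was named for the gene that RefSeq now calls DEFB1. The transcript listed for DEFB5 was not matched in the RefSeq table, and the name in the files was kept.

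The data came from mammary gland of female Chinese Holstein cows in late lactation, with 1 array labelled mastitis and 1 labelled healthy (the normal array), each read in a single colour. The design describes 3 cows with and 3 without mastitis, and the sources do not name the animal or animals behind either array. By the methods, antibiotics had been given to the cows with clinical mastitis (from gram-negative bacteria, by the study's text) and to none of the healthy cows, and the tissue was taken after slaughter, so the disease cannot be told apart from its treatment. With 1 array per condition there was no replicate check, so no test was run and each value below describes these 2 arrays. In a whole tissue sample, fewer cells of a type and less RNA per cell also cannot be told apart.

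Each spot was measured as its net signal, the brightness in the green (Cy3) channel after subtraction of 1 background value per array. Probes were called well above background from a net signal above 7.10 (mastitis) or 8.74 (normal) in spots that the scanning software located, and 70.2% and 67.0% of probes were. For ratios, the signals were scaled by the 75th percentile of their array, which was 210 (mastitis) and 128 (normal). A net signal that was equal on both arrays therefore stands for a level 1.64-fold lower on the mastitis array. As measures of spread within these arrays, log2 ratios had a pooled SD of 0.17 among replicate spots (41 probes) and of 0.45 among the probes of a gene. Neither holds the error between hybridisations, and the SD among probes also holds differences in what the probes bind. The labelled tissue was checked against milk genes: CSN3, which encodes kappa-casein, had median net signals of 10302 in mastitis and 60840 in normal tissue (72% of the pixels of 1 of its 2 normal spots were saturated), while LALBA, which encodes alpha-lactalbumin, was well above background on the normal array alone.

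The beta-defensin genes did not all differ in the same direction. TAP, LAP and DEFB10 were lower on the mastitis array by 2-fold or more, DEFB was higher by 2-fold or more, and EBD, DEFB5 and DEFB4A were within 2-fold. All 7 genes had a probe measured on both arrays, so none was lost to the filter on dim probes. Against these 3 of 7 lower genes and 1 of 7 higher, 9.14% of the 12245 genes measured on both arrays were lower by 2-fold or more and 2.26% were higher by as much. The log2 ratios of the members ran from -4.35 to 1.77 with a median of 0.047, beside a median of -0.15 over all genes.

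**Figure D1:**
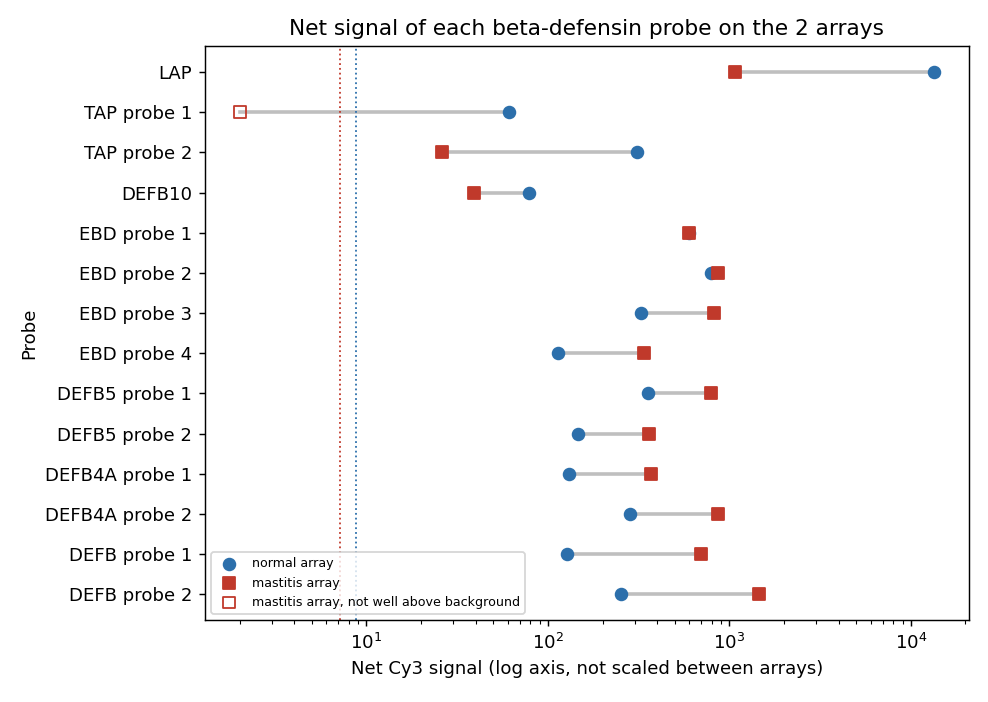
Net Cy3 signal (horizontal log axis, not scaled between arrays) of each of the 14 beta-defensin probes, with the normal array as blue circles and the mastitis array as red squares. Dotted lines mark the background thresholds of 7.10 (mastitis, red) and 8.74 (normal, blue), the open square is a spot not well above background, and the markers of the first EBD probe (599 and 602) overlap. The LAP and TAP squares lie far to the left of their circles, while both DEFB squares lie far to the right.

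LAP and TAP, the peptides of the tongue and tracheal lining, were the lowest members. LAP, or lingual antimicrobial peptide, had a net signal of 1079 in mastitis and 13384 in normal tissue. The SD over the 80 pixels of the spot was 201 and 2377, no pixel was saturated, and both spots lay far above the background. LAP was 20.4-fold lower on the mastitis array (log2 ratio -4.35, 1 probe). Only 27 of the 12245 measured genes had a lower ratio. LAP was thus still clearly detected in the mastitis tissue, at a much lower level than in the normal tissue.

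TAP, the tracheal antimicrobial peptide, had 2 probes, and both were brighter on the normal array. The probe of its RefSeq transcript had net signals of 26 in mastitis and 309 in normal tissue, with pixel SDs of 15 and 78. This gave a level 19.5-fold lower on the mastitis array (log2 ratio -4.29), with 30 genes lower still. The mastitis spot of this probe was dim, and its pixel SD was large beside its net signal. The size of the TAP ratio depended on the processing, at -2.62 (6.13-fold lower) with the normexp background correction and -4.97 (31.2-fold lower) without the filter on dim probes. The other probe, designed on an Ensembl transcript of TAP, had a net signal of 61 on the normal array and of 2 on the mastitis array, where the software did not find the spot. It gave a lower bound only, at least 12.5-fold lower, so both probes had the same direction.

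The 5 genes closest to TAP in log2 ratio, a likeness that covers these 2 arrays and the 75th percentile scaling alone, were FGG, SERPINA11, ATP11A, SCNN1G and XKR4. FGG, which encodes the gamma chain of fibrinogen, was 19.6-fold lower from a probe with net signals of 65 and 777. The others were between 18.6-fold and 20.0-fold lower, each from 1 measured probe. Their mastitis net signals, from 16 (ATP11A) to 28 (XKR4), were about as dim as that of TAP, so these sizes are rough.

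DEFB10, a beta-defensin known from neutrophils (BNBD10), was also lower on the mastitis array. Its single probe had net signals of 39 in mastitis and 79 in normal tissue, with pixel SDs of 23 and 29. The level was 3.32-fold lower on the mastitis array (log2 ratio -1.73). Both spots were dim, and with the normexp background correction the log2 ratio was -0.99, so the gene no longer passed 2-fold.

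DEFB was the only member that was higher on the mastitis array by 2-fold or more, and its 2 probes gave nearly the same ratio. One probe had net signals of 1456 in mastitis and 253 in normal tissue, with pixel SDs of 332 and 64. The other had 698 and 128, with pixel SDs of 131 and 30. The log2 ratios of the probes were 1.81 and 1.73, and their difference was smaller than the SD over replicate spots. DEFB was 3.41-fold higher on the mastitis array (log2 ratio 1.77, SD 0.055, 2 probes), and 41 of the measured genes had a higher ratio.

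**Figure D2:**
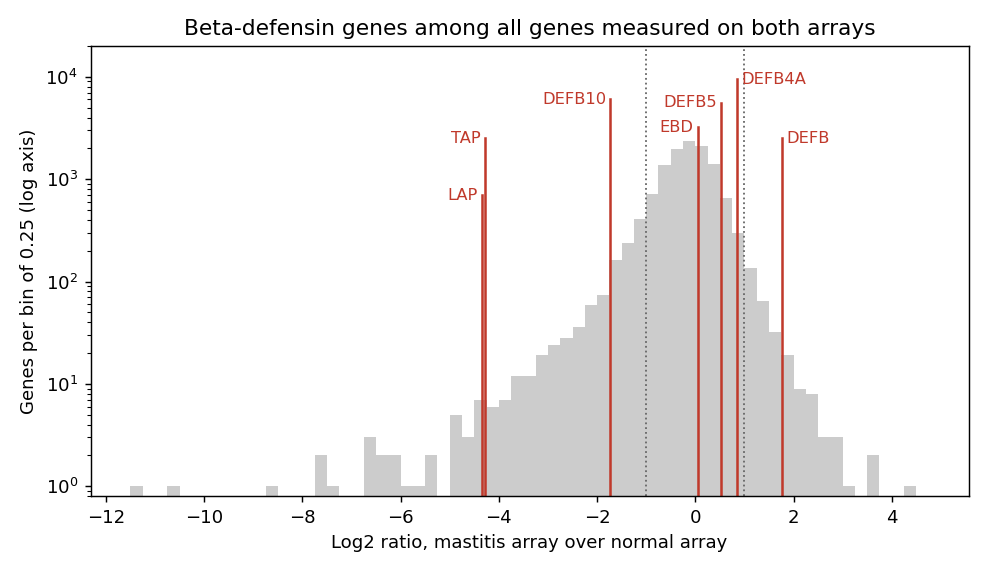
Number of genes (vertical log axis) per 0.25 of log2 ratio, mastitis array over normal array (horizontal axis), for the 12245 genes measured on both arrays, with the 7 beta-defensin genes as red lines whose height has no meaning. Dotted lines mark 2-fold. LAP and TAP stand in the left tail at -4.35 and -4.29, and DEFB in the right tail at 1.77.

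DEFB4A and DEFB5, beta-defensins known from bovine neutrophils, were somewhat higher on the mastitis array without reaching 2-fold. The DEFB4A probes had net signals of 869 and 370 in mastitis and of 282 and 130 in normal tissue. DEFB4A was 1.81-fold higher (log2 ratio 0.85, SD 0.081, 2 probes), and it passed 2-fold when the arrays were scaled on their median or on the spike-in probes (log2 ratio 1.09 with the latter). Its 2 probes gave log2 ratios of 0.91 and 0.79, so they differed by less than the SD over replicate spots.

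The DEFB5 probes had net signals of 790 and 361 in mastitis and of 354 and 146 in normal tissue. DEFB5 was 1.43-fold higher (log2 ratio 0.52, SD 0.10, 2 probes). The brighter of its probes lists the DEFB4A transcript among its hits, so its signal can hold both messages, and the other probe alone gave a log2 ratio of 0.59. Either way DEFB5 lay within 2-fold, but without scaling of the arrays its log2 ratio was 1.23. In log2 ratio, DEFB5 and DEFB4A differed by less than the SD over probes of a gene.

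EBD, the enteric beta-defensin known from the bovine gut, had 4 probes that did not agree in sign. Its mean log2 ratio was 0.047 with an SD of 0.81 over the 4 probes, so no direction can be given. A pair of probes was higher on the mastitis array, with net signals of 819 against 325 (log2 ratio 0.62) and 338 against 113 (log2 ratio 0.87). The other pair was lower after scaling, with 867 against 787 (log2 ratio -0.57) and 599 against 602 (log2 ratio -0.72).

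The hits that the files list for these probes were not the same. The probe at 0.87 lists 1 Ensembl transcript and that at 0.62 lists 2. The probe at -0.57 lists 3, and the probe at -0.72 lists 2 together with the RefSeq transcript of DEFB7. Each list in the files holds at most 4 accessions, and the list of every member probe holds 4, so further hits may be missing for any member. Whether other defensin messages bind the EBD probes, or those of the other members, was not tested. Without the probe that also lists DEFB7, the mean log2 ratio of EBD was 0.30.

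Of the remaining beta-defensins, DEFB7 was the one with clear signal, and its probes disagreed in size. DEFB7 stands in RefSeq for several neutrophil beta-defensins, BNBD3, BNBD7, BNBD8 and BNBD9 among its synonyms. One probe had net signals of 134 in mastitis and 952 in normal tissue, 11.7-fold lower (log2 ratio -3.54). Another had 542 and 548 (log2 ratio -0.73), close to the EBD probe that shares the DEFB7 hit, and the last was not well above background on either array. The hits of the probe at -0.73 include another predicted transcript. The size of the DEFB7 ratio thus depends on the probe, while both measured probes were lower.

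In all, 15 further probes were annotated as defensins, for 7 genes, and 7 of these probes were below the threshold on both arrays. DEFB119 and DEFB122A had no probe well above background on either array. DEFB122 had net signals of 72 and 53 in mastitis and of 51 and 42 in normal tissue (log2 ratio between -0.38 and -0.22), within 2-fold. The signals of DEFB123, DEFB124 and DEFB103B were at or below 22 on both arrays, too dim to rank. None of these 7 genes was higher by 2-fold or more.

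By RefSeq, all placed members lie on chromosome 27, and their ratios are given here in gene order. The order of the members with a probe was TAP, LAP, DEFB10, DEFB, DEFB4A and EBD, within a stretch of 47 annotated genes of which 28 encode proteins. The 3 members from the TAP end were each lower on the mastitis array by 2-fold or more. Toward the EBD end, DEFB was higher by 2-fold or more, DEFB4A was higher without reaching 2-fold, and EBD, at the end itself, had probes of both signs. DEFB7 lies between DEFB10 and DEFB. Of the 11 genes of the stretch with a probe, 10 were measured on both arrays. The zinc finger gene ZNF705A, between TAP and LAP, had a log2 ratio of 0.44 from 1 measured probe (net signals of 169 and 76). LOC783025 at -0.71 (15 and 15) and DEFB103B at -0.94 (13 and 22, 16 and 13) also lie between them. Both were too dim on the normal array to show a ratio as low as that of TAP or LAP. This is a description of few genes, since near-identical copies in the cluster can share probes and DEFB5 could not be placed.

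**Figure D3:**
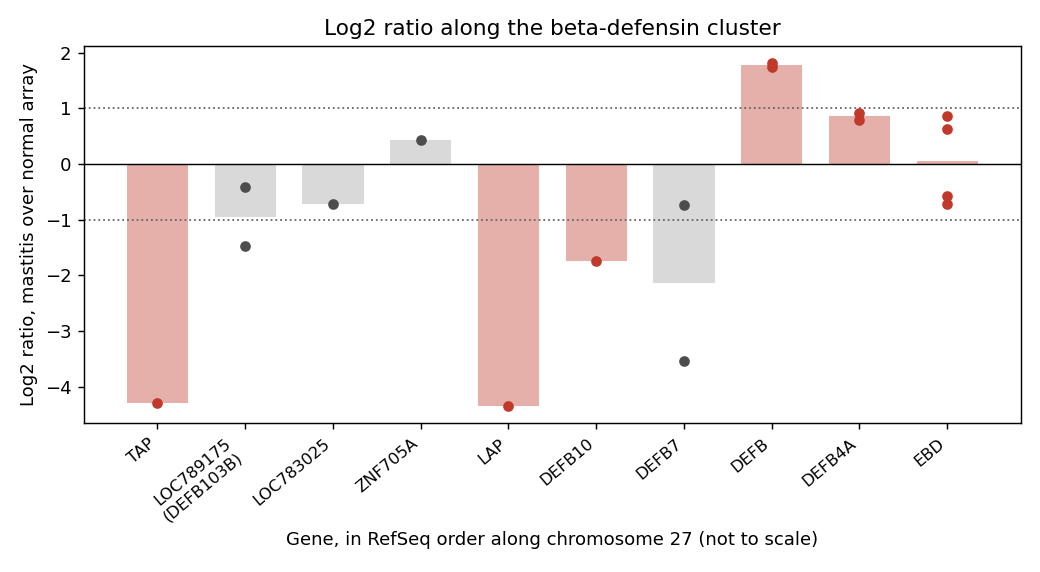
Log2 ratio, mastitis array over normal array (vertical axis), of the 10 measured genes between TAP and EBD in their RefSeq order on chromosome 27 (horizontal axis, not to scale). Bars are gene means, points are probes, members are red and other genes grey, and dotted lines mark 2-fold. TAP, LAP and DEFB10 lie below the lower line, DEFB lies above the upper line, and the 4 EBD points lie on both sides of 0.

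Other antimicrobial genes, read from lists that were written from textbook knowledge, also included both directions. Cathelicidins, peptides of neutrophil granules, were all within 2-fold, as were most of all genes: 7 of 7 measured genes, with a median log2 ratio of 0.57. CATHL3 and CATHL1 had log2 ratios of 0.89 and 0.69, CATHL4 had 0.62 and CATHL2 had 0.57. These 4 ratios, the highest of the 7, were near those of DEFB5 and DEFB4A and far from those of LAP and TAP. DEFB10 and DEFB7, also beta-defensins known from neutrophils, lay on the other side of 0. DEFB10 had -1.73, and the measured DEFB7 probes had -3.54 and -0.73. CAMP, CATHL6 and CATHL5 were closer to 0, with 0.33, 0.18 and -0.0057. Among other antibacterial proteins of epithelium and milk, 10 of 20 measured genes were lower on the mastitis array by 2-fold or more. Over all genes the shares were 9.14% lower and 2.26% higher by as much. Of the 20, 1 was higher by 2-fold or more, and their median log2 ratio was -1.07. The higher one was BPI, a neutrophil protein that binds lipopolysaccharide, at 1.59 (SD 1.15, 2 probes). LPO, which encodes lactoperoxidase, was 14.3-fold lower from 1 probe, and MUC1, an epithelial mucin, was 10.6-fold lower over 5 probes (SD 1.03 on the log2 scale). ANG2, an angiogenin of the RNase family in cattle, was 4.15-fold lower (SD 0.45, 2 probes), and PIGR, which carries IgA into milk, was 3.73-fold lower (SD 0.52, 3 probes).

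Genes that sense bacteria and signal through NF-κB, a route by which TAP and LAP can be induced in epithelial cells, had a share of lower genes near that of all genes. Of 18 measured genes, 2 were lower by 2-fold or more, beside 9.14% of all genes, 16 were within 2-fold, and the median over the 18 was -0.44 on the log2 scale. LBP, which presents lipopolysaccharide, was 9.93-fold lower over 5 probes (SD 0.25 on the log2 scale). TLR2, the receptor of bacterial lipoproteins, was 3.03-fold lower as a mean (SD 1.01, 4 probes), but its brightest probe had net signals of 18962 and 12325 and a log2 ratio of -0.093. CEBPD and IRAK1 had log2 ratios of -0.89 and -0.81, within 2-fold. TLR4 had -0.037, NFKB1 -0.22 and RELA 0.0090, so these were at close levels on both arrays.

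Of the cytokines known to induce beta-defensins, most were not seen on either array. IL1A, IL6, IL17A, IL17F and IL22 had no probe well above background on either array, which at this depth of signal does not show that they were absent. Of 7 measured genes of these cytokines, their receptors and the vitamin D pathway, 6 were within 2-fold and 1 was lower by more. Over all genes the share lower by 2-fold or more was 9.14%. The lower one of the 7 was VDR, the vitamin D receptor, with a log2 ratio of -3.33 from 1 probe with net signals of 27 and 165. IL17RC and IL1B had log2 ratios of -0.79 and -0.71, and IL1R1 had -0.58. The chemotactic receptors CCR6 and CCR2 were not measured on both arrays.

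**Figure D4:**
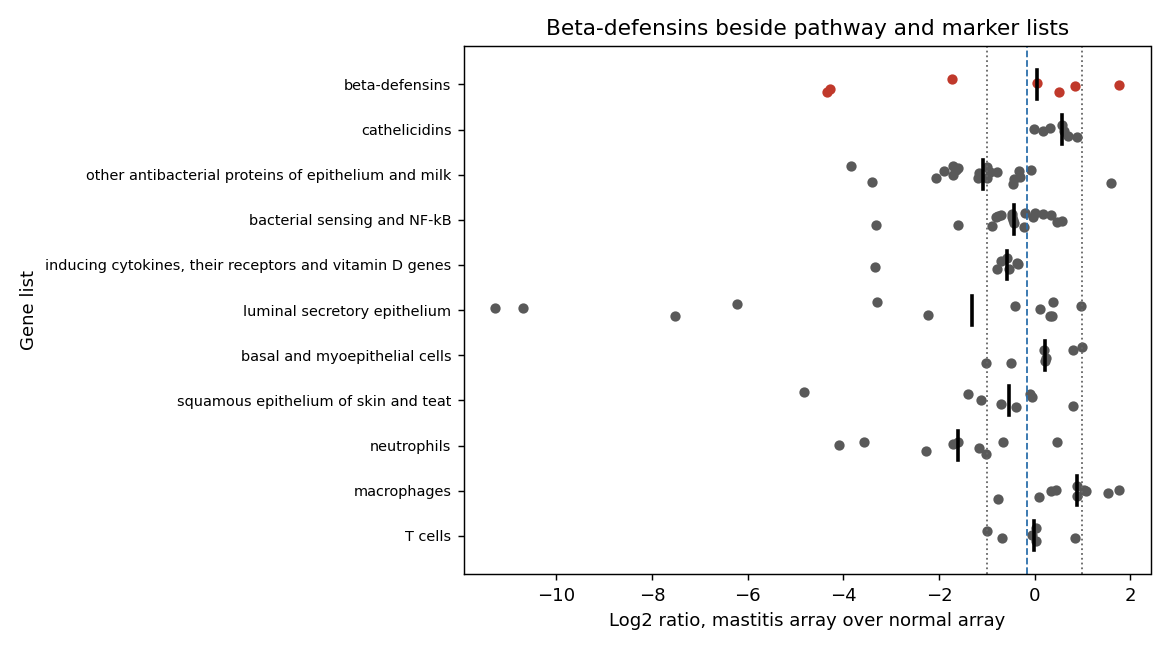
Log2 ratio, mastitis array over normal array (horizontal axis), of each measured gene in the beta-defensins (red) and in the pathway and marker lists (grey), spread vertically for legibility. Black bars show the median of each list, a dashed line stands at -0.15 (the median over all genes), and dotted lines stand at 2-fold. The beta-defensins spread from -4.35 to 1.77, while all cathelicidins lie within 2-fold.

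Markers of cell types that the gland can hold also differed between the arrays. The marker counts below stand beside 9.14% of all measured genes lower by 2-fold or more and 2.26% higher by as much. Of 12 measured genes of the luminal secretory epithelium, 6 were lower on the mastitis array by 2-fold or more and the others were within 2-fold, with a summed scaled signal of 224 in mastitis and 3019 in normal tissue. The lower ones were milk genes and the transcription factor gene ELF5, with GLYCAM1, PAEP, CSN2 and CSN1S1 at log2 ratios of -11.27, -10.69, -7.53 and -6.23. These sizes are rough, since 68% of the pixels of a CSN1S1 probe and 20% of those of a CSN2 probe were saturated on the normal array, and a PAEP probe had a mastitis net signal of 11 from a spot of 12 pixels (SD of the log2 ratio 3.50, 2 probes). The summed normal signal holds such saturated spots of CSN1S1, CSN2 and CSN3. General epithelial genes were within 2-fold, with KRT18 just so at 0.97. CDH1 had 0.38, KRT8 0.36 (SD 0.67, 4 probes), KRT7 0.32, EPCAM 0.12 and KRT19 -0.40. Of 9 measured neutrophil markers, 7 were lower by 2-fold or more and the others were within 2-fold, with summed scaled signals of 21.1 and 53.7. Without S100A12, the brightest, the sums were 11.0 and 22.5. The S100A8, S100A9 and S100A12 genes of this list also stand in that of antibacterial proteins. CSF3R and the elastase gene ELANE had log2 ratios of -2.26 and -3.56, S100A12 had -1.70, and FCGR3A was on the other side of 0 at 0.46 (SD 0.049, 3 probes). The ratio of CXCR1, -4.09, rested on a mastitis net signal of 8, just above the threshold, from a probe that the files name CXCR2. MPO and CXCR2 had no probe well above background on either array.

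Macrophage markers differed in the other direction, with 4 of 10 measured genes higher on the mastitis array by 2-fold or more and 6 within 2-fold. Their summed scaled signals were 139 and 78.3, CD163, VSIG4 and C1QA had log2 ratios of 1.76, 1.53 and 1.08, C1QB had 1.02, and without C1QA the sums were 88.0 and 53.7. CD14 was on the other side of 0, at -0.77 (SD 0.51, 3 probes), and MARCO stayed under the background threshold on both arrays. Of 8 measured squamous markers, 3 were lower by 2-fold or more and 5 were within 2-fold, with summed scaled signals of 6.05 and 7.23. The one furthest from 0 was TGM3, at -4.82 from 1 probe, followed by KRT4 (-1.39), KRTDAP (-1.13) and KRT10 (0.81). KRT4 rested on 1 dim probe (net signals of 25 and 40), and KRTDAP on 1 probe just above the thresholds (9 and 12). The mastitis sum rested on 1 spot of KRT2, with a net signal of 992 from 12 pixels with an SD of 2206, while the other KRT2 probe was below background on both arrays, so no fold is given for it. Without KRT2 the sums were 1.33 and 7.23, and without TGM3 as well they were 1.12 and 1.46. DSC1, DSG1, SPRR3 and TGM1 stayed under the threshold on both arrays.

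Of 7 measured basal and myoepithelial markers, 1 was lower by 2-fold or more, CNN1 at -1.01 (SD 0.75, 2 probes). The bright CNN1 probe (net signals of 1221 and 1038) was within 2-fold at -0.48, and the dim one (13 and 23) had -1.54. KRT5, KRT17 and ACTA2 had 0.99, 0.80 (SD 1.19, 2 probes) and -0.50. The summed scaled signals of this list were 78.3 and 79.1, or 46.0 and 33.5 without ACTA2. All 6 T cell markers were within 2-fold, with CD2 at -0.99, CD5 at 0.84, CD4 at -0.68 and CD3D at -0.057, and summed scaled signals of 50.3 and 72.1. A single CD4 probe gave most of these sums, which were 13.6 and 13.2 without it, and the other 4 CD4 probes were below background on both arrays. The part of these shifts in the ratios of the beta-defensins was not tested.

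The directions of LAP, TAP and DEFB held under most processing. TAP, where not left out as too dim, stayed between 6.13-fold and 31.2-fold lower outside the deposited table of log2 values read row by row. The 31.2-fold end came without the filter on dim probes, so it includes a mastitis spot below the background threshold. LAP stayed between 12.4-fold and 20.4-fold lower and DEFB between 3.08-fold and 5.60-fold higher in every processing tried except the deposited table read row by row. In that table LAP had a log2 ratio of 0.02, DEFB of -0.05, DEFB10 of 1.22, DEFB4A of 4.25 and TAP of -1.46. The table's mastitis column had a Spearman correlation across probes, which are not replicates, of 0.10 with the scanner signals when each row was read under its own probe name, against 0.9998 under the name that follows it in sorted order. When its rows were moved by 1 probe, an alternative chosen after seeing the data, all 7 genes had the signs of the scanner files, with DEFB at 2.06 and LAP at -4.18. The moved mastitis column nearly repeats the order of the scanner signals, so these signs are not a separate check.

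**Figure D5:**
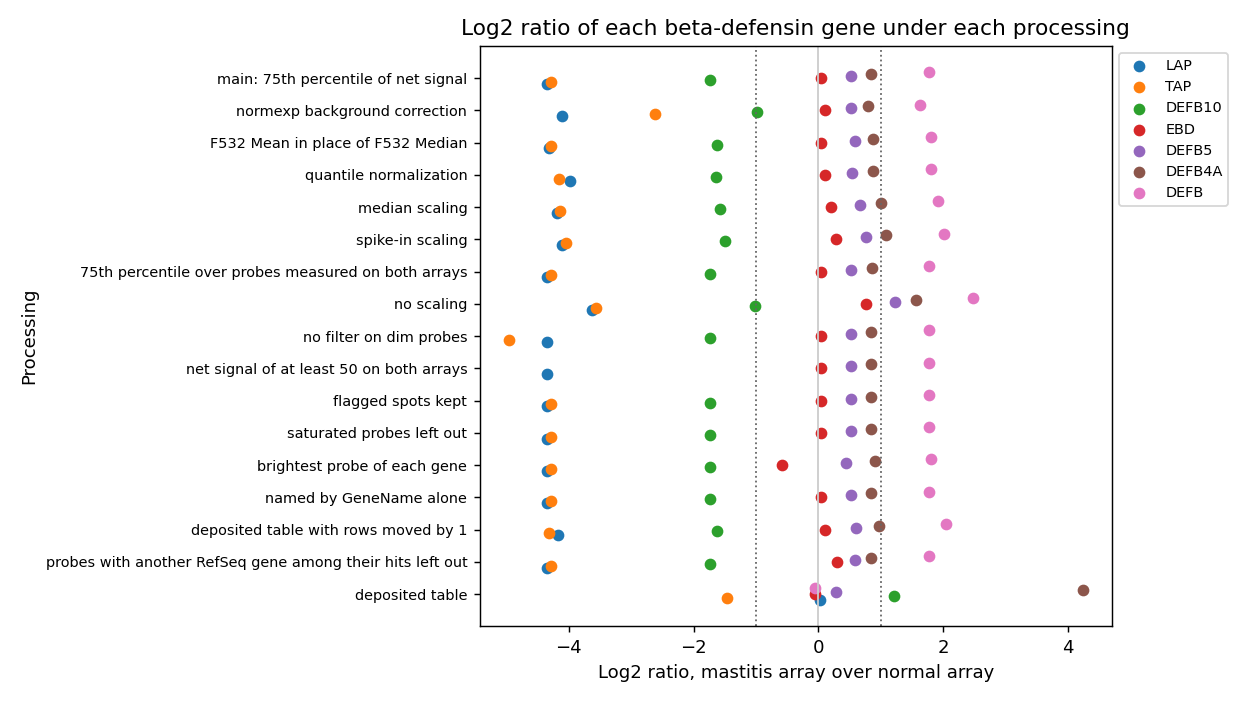
Log2 ratio, mastitis array over normal array (horizontal axis), of each of the 7 beta-defensin genes (colours) under each processing (vertical axis), with dotted lines at 2-fold and 2 genes too dim for the minimum of 50 left out of that setting. TAP stays left of the lower 2-fold line wherever it is drawn, and LAP stays left of it and DEFB right of the upper line in all but the deposited table in the last line.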

How the data were processed

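Mammary tissue RNA was hybridised to 1 array per condition, both on the same slide. Per the file headers, the arrays were an Agilent bovine design read with GenePix Pro 6.1. The methods name an Affymetrix chip instead and the submitters' processing notes list Feature Extraction, but the columns deposited are those of GenePix. The authors deposited, for each of 45220 spots, the Cy3 intensity minus 1 value per array (26 for mastitis, 24 for normal), which equals the rounded mean of the 604 dark corner spots. No scaling was applied. Each spot further had a flag, a signal-to-noise score and the percent of its pixels at saturation as deposited. The authors also gave a table of log2 values with no stated method or centring, which served as an alternative.

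Control spots were left out and spots of a probe were averaged. The background threshold lay 2.6 SD above the mean of 153 negative control spots. The design assumed Feature Extraction files, and these quantities come nearest to theirs. Log2 ratios of all probes with signal on both arrays (27878) were averaged per gene. Before subtraction the negative control spots had mean intensities of 26.01 (mastitis) and 25.95 (normal), beside subtracted values of 26 and 24. Net signals of dim spots on the normal array thus keep more background, which can lower the ratios of dim genes and was not corrected. For a probe well above background on 1 array, a lower bound was taken against the dim signal or, if higher, the lowest signal that passed the threshold (8 for mastitis, 9 for normal). A summed scaled signal is the sum over the brightest probe of each gene, each divided by the 75th percentile of its array. Probes were named through a RefSeq table of the ARS-UCD2.0 assembly, by transcript (26743 probes), symbol (5971) or synonym (141), the file's own name stayed on 1662, and 9136 were unnamed. The table served for names and gene order only.

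The number of arrays limits the precision, and no test was made. Genes named in the text were every member, every other defensin, up to 4 genes with the largest ratios in each list, the 5 genes closest to TAP, and further list members chosen after their values were seen. The members and lists were chosen with earlier results of these data known. Alternatives were the normexp correction (limma 3.58.1 in R 4.3.3, offset 50), the spot mean, quantile normalization, other scalings, the deposited table, other filters, the brightest probe, naming by the files alone and other fold thresholds. After seeing the data, a shift of the deposited table by 1 row was added, as was leaving out probes that list another RefSeq gene. The calculation was tested on simulated data. Values and figures were computed in Python 3.11.15 (pandas 2.3.3, numpy 2.4.6, matplotlib 3.10.9, scipy 1.17.1).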

Additional observations from a re-analysis of the deposited data

How the results depend on the processing

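The count of 3 beta-defensin genes lower on the mastitis array by 2-fold or more was 2 with the normexp correction, 1 when both net signals had to reach 50, where TAP and DEFB10 were too dim to enter, and 1 in the deposited table read row by row. The count of 1 gene at least 2-fold higher was 2 with median scaling, spike-in scaling, a 1.5-fold threshold or the deposited table, and 3 without scaling (DEFB, DEFB4A and DEFB5). The median log2 ratio of the members, 0.047, was 0.76 without scaling, 0.52 with the minimum of 50 and -0.57 with the brightest probe of each gene, since EBD, the middle gene, then rested on a probe at -0.57. Without scaling the median of all genes moved from -0.15 to 0.56, with spike-in scaling to 0.091, with quantile normalization to 0.0069 and with median scaling to 0.0011. The counts over all genes, 1119 lower and 277 higher, were 398 and 95 with normexp, 323 and 2449 without scaling and 723 and 556 with spike-in scaling. They were 752 and 436 with quantile normalization and 819 and 420 with median scaling. All these counts were out of 12245 genes. With dim probes left in they were 4035 and 454 of 16959 genes, and with the minimum of 50 they were 522 and 201 of 8468. In the deposited table DEFB, DEFB10 and LAP turned to -0.05, 1.22 and 0.02, DEFB4A and TAP were at 4.25 and -1.46, and its rows stood 1 probe away from the signals they match. The log2 ratio of TAP was -2.62 with normexp in place of -4.29. No paired analysis was possible because each condition has 1 array, and for the same reason no replicate could be left out.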
